A study of Brassica rapa subsp. chinensis with 24 samples.

Results

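The genes described here are a module for starch, sucrose and sugar transport in Choy-sum, a leafy Brassica rapa (subsp. chinensis). The module was given as a list of 44 identifiers of the Arabidopsis type, drawn up by family and pathway; no measured value enters its rule, though earlier results of these data were known when it was made. Of the 44, 43 occur among the 20564 identifiers of the deposited table. AT4G39210, listed under starch synthesis, is not analysed here. The 43 identifiers label 178 of the table's 66566 rows, and the rows of an identifier were summed in each library. The classes comprised 6 sugar transporters of the phloem and plasma membrane (23 rows), 8 identifiers of sucrose synthesis and cleavage (39 rows), 13 of starch synthesis (50 rows), 13 of starch breakdown (54 rows) and 3 carriers of the plastid envelope (12 rows).

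All plants were wild type and grew in peat-moss soil under a cycle of 16 h light and 8 h dark. Seeds of the treated plants had been dressed with SAB, a consortium of 3 bacteria in which Streptomyces was combined with an Agromyces-Bacillus culture. Untreated plants grew from seeds kept in magnesium sulfate alone. Polyadenylated RNA came from whole leaves and, separately, whole roots, of day 18, a mature stage without flowering, and of day 8, the true leaf stage. The 8 groups of 3 libraries each were SAB leaf day 18, untreated leaf day 18, SAB leaf day 8, untreated leaf day 8, SAB root day 18, untreated root day 18, SAB root day 8 and untreated root day 8. The replicates are independent biological replicates according to the labels, and p-values measure the spread between them. The labels name no pooling of plants. The estimated counts of a library summed to 28068078 to 37999455, and the members together held 0.179% to 0.622% of them. Levels are given as CPM, a share of the library's counts scaled by TMM, a factor that corrects a library's total for its composition. Since whole organs were sampled, fewer cells of a type and less RNA per cell cannot be told apart in any value.

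As background, plants fix carbon in chloroplasts by day and divide it between transitory starch, which is stored in the plastid and broken down at night, and sucrose, which is made in the cytosol and moved through the phloem. In Arabidopsis, TPT exchanges triose phosphate for phosphate across the chloroplast envelope, MEX1 exports the maltose released from starch, and GPT2 exchanges glucose 6-phosphate for phosphate. SPS makes sucrose phosphate, SUC2 loads sucrose into the phloem, SWEET proteins let sugars pass membranes down their gradient, and STP proteins take up hexoses together with protons. SUS and the invertases cleave sucrose in tissues that use it. The family words attached here to identifiers come from the list that defined the module. Neither the table nor the gene table at hand pairs identifiers with names or sequences (0 members matched), so the starch enzymes are called by identifier and class. The classes follow what the Arabidopsis gene of each identifier is known for.

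The organ, more than the day or the treatment, separated the members' levels, as the heat map of the group means shows. The median ratio of a member's highest to its lowest group mean was 1.96 among the 4 leaf groups and 1.47 among the 4 root groups. In leaf it ran from 1.03 for AT2G39930 (starch synthesis) to 23.4 for the invertase AT3G13790. The latter was low throughout leaf, with means of 0.248 CPM in SAB leaf of day 18 and 5.81 CPM in SAB leaf of day 8. The next ratio in leaf was 14.7, for AT1G32900 of starch synthesis. In root it ran from 1.12 for AT2G36390 to 6.32 for AT5G19220, both of starch synthesis. The ratio of AT5G19220 rested on 1 library: untreated root of day 18 had 0.513, 0.0683 and 3.04 CPM in replicates 1 to 3, and the next ratio in root was 4.37, for the SWEET AT3G48740.

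**Figure D1:**
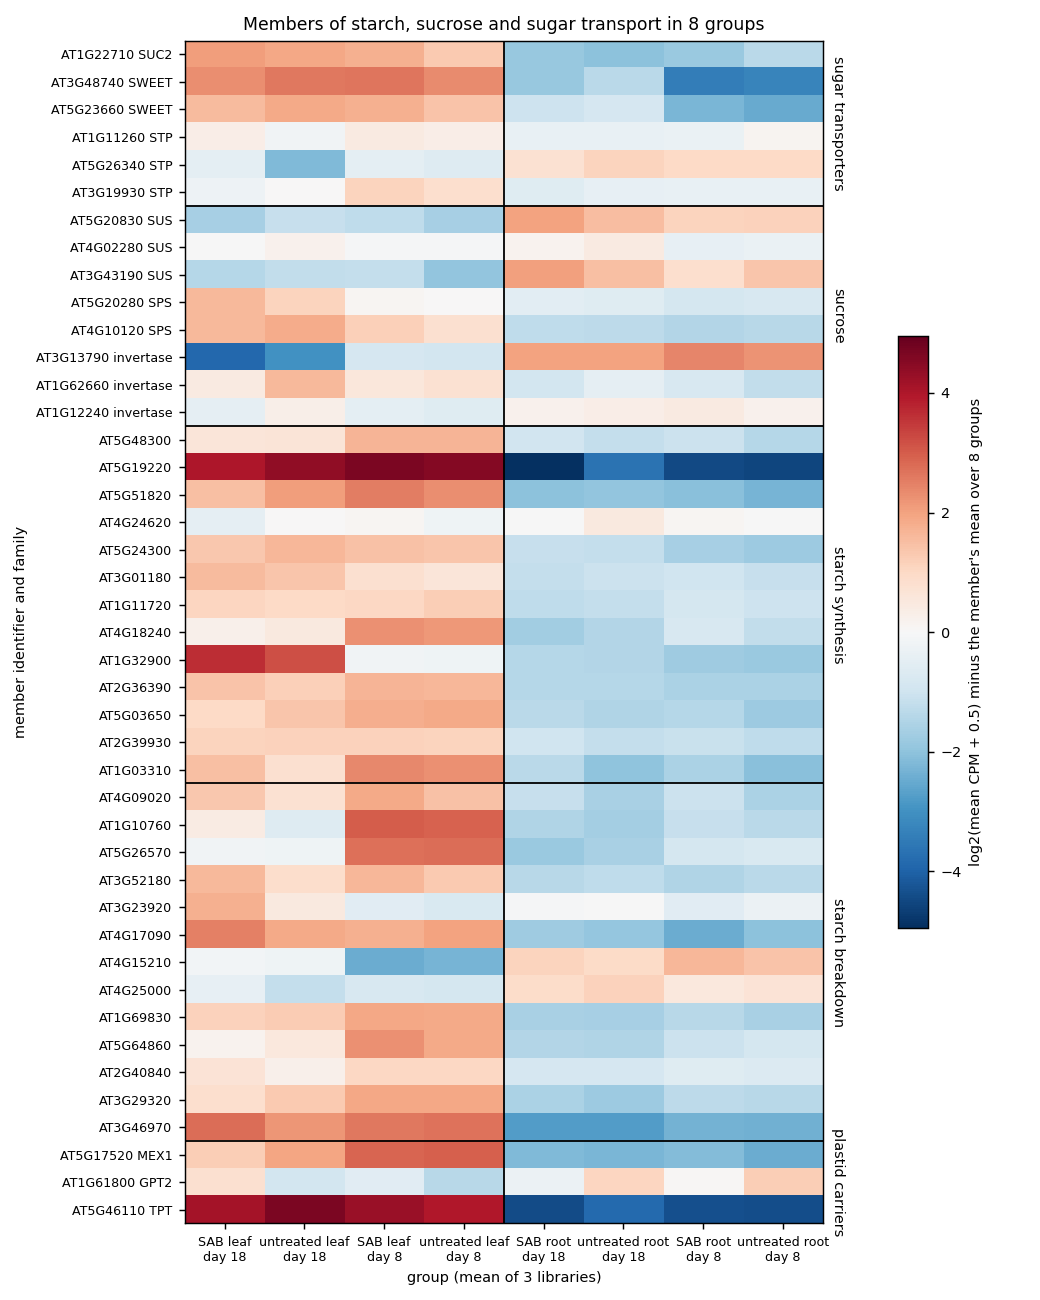
Heat map of the 43 members (rows, by class) in the 8 groups (columns, each the mean of 3 libraries); color is log2(mean CPM + 0.5) minus the member's mean over the 8 groups, red above and blue below it. Most members of starch synthesis and breakdown were above their mean in the 4 leaf groups, while the SUS AT5G20830 and AT3G43190 and the invertase AT3G13790 were above it in the 4 root groups.

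Leaf and root were compared in each treatment and day by the edgeR quasi-likelihood test on all 24 libraries, without pairing of leaf and root. Benjamini-Hochberg adjustment was over 19681 identifiers, with a false discovery rate of 0.05, the threshold used throughout. In SAB plants of day 18, 33 of the 43 members were higher in leaf than in root and 8 lower; of all identifiers 29.7% were higher and 31.8% lower (61.4% called). The counts were 33 and 7 in SAB plants of day 8 (29.6% and 31.7% of all identifiers, 61.3% called). In untreated plants they were 31 and 8 at day 18 (28.0% and 33.4%, 61.5% called) and 31 and 9 at day 8 (29.0% and 32.7%, 61.6% called). The median member was higher in leaf by 2.17 on the log2 scale at day 18 in both treatments, by 2.98 in SAB plants of day 8 and by 2.68 in untreated plants of day 8, against medians of −0.10 to −0.04 over all identifiers. The same 30 members were called higher in leaf in all 4 comparisons, and the same 6 were called lower in all 4. The share of all identifiers called alike in all 4 was not computed.

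Of starch synthesis, 12 of 13 members were higher in leaf in each of the 4 comparisons. AT5G19220 lay between 302 and 589 CPM in the 12 leaf libraries and between 0.046 and 3.04 CPM in the 12 root libraries. The exception, AT4G24620, was lower in leaf at day 18, with 64.7 ± 5.51 CPM in SAB leaf and 87.4 ± 21.5 CPM in SAB root (SD, n = 3 each; log2 −0.43, SE 0.15, edgeR adjusted p = 0.0204), groups that overlapped. Its untreated means at day 18 were 91.0 ± 7.03 CPM in leaf and 124 ± 13.9 CPM in root (log2 −0.45, SE 0.15, adjusted p = 0.0168), without overlap. Of the 6 fits that left out 1 library each, the call held in 4 in SAB plants (highest adjusted p 0.189) and in 3 in untreated plants (highest 0.081). Of starch breakdown, 10 to 11 of 13 members were higher in leaf and 2 to 3 lower. AT3G46970 was 5.66 higher on the log2 scale in SAB leaf of day 18, 5.03 in SAB leaf of day 8, 5.07 in untreated leaf of day 18 and 5.15 in untreated leaf of day 8. AT4G15210 was higher in root, and by less at day 18: the leaf-over-root log2 fold was −1.27 at day 18 and −4.43 at day 8 in SAB plants, and −1.20 at day 18 and −4.00 at day 8 in untreated plants. Its counts came mostly from row 2 in leaf (99.6%) and from row 1 in root (75.2%), so these folds compare mostly different rows. AT4G25000 was the other breakdown member lower in leaf in all 4 comparisons, with 0.75 ± 0.467 CPM in leaf and 5.79 ± 1.16 CPM in root of untreated plants of day 18 (log2 −2.95, SE 0.62, edgeR adjusted p = 0.000368).

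Of the carriers, TPT (AT5G46110) stood between 1224 and 2671 CPM in every leaf library and between 2.39 and 13.6 CPM in every root library, with log2 folds of 8.50 to 8.76. The 13.6 CPM belonged to replicate 3 of untreated root day 18, the root library with the highest sum of 9 markers of green tissue (548.5 CPM, against 31.7 CPM in the lowest root library). The part of green tissue in that value was not tested. GPT2 (AT1G61800) had no constant order between organs. In SAB plants of day 18 it was higher in leaf by 1.11 on the log2 scale (edgeR adjusted p = 0.015). In untreated plants it was lower in leaf, by −2.00 at day 18 (adjusted p = 0.000165) and −2.65 at day 8 (adjusted p = 8.82e-06), and in SAB plants of day 8 the log2 value of −0.61 did not pass.

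The transporters and the sucrose enzymes were divided. Both SWEETs and SUC2 were higher in leaf in all 4 comparisons. For the SWEET AT3G48740 the log2 fold of leaf over root was 4.19 at day 18 and 6.14 at day 8 in SAB plants, and 3.98 at day 18 and 5.64 at day 8 in untreated plants. The STP AT5G26340 was higher in root, with log2 folds of −1.31 and −1.53 in SAB plants of day 18 and day 8, and −3.64 and −1.71 in untreated plants of day 18 and day 8. Its call in SAB plants of day 18 held in 4 of 6 fits without 1 library, with log2 folds of −2.28 without SAB leaf replicate 1 to −0.94 without SAB leaf replicate 3 (highest adjusted p 0.0554). Among the sucrose enzymes the SUS AT5G20830 and AT3G43190 and the invertase AT3G13790 were higher in root throughout. AT5G20830 had log2 folds of −3.66 and −2.39 in SAB plants of day 18 and day 8, and −2.68 and −2.80 in untreated plants. AT3G43190 had −3.47 and −2.03 in SAB plants, and −2.73 and −3.35 in untreated plants, again with day 18 given before day 8. AT3G13790 averaged 0.248 ± 0.339 CPM in SAB leaf and 43.3 ± 11.9 CPM in SAB root at day 18. The SPS AT5G20280 was higher in leaf in all 4 comparisons. In SAB plants of day 18 it had 198 ± 46.8 CPM in leaf and 45.0 ± 4.33 CPM in root (log2 2.14, SE 0.22, edgeR adjusted p = 4.99e-08). The other SPS, AT4G10120, was at or below 0.302 CPM in every root library and was not tested within root. The invertase AT1G62660 was also higher in leaf in all 4 comparisons. At day 8 it had 9.84 ± 1.88 CPM in leaf and 3.64 ± 0.649 CPM in root of SAB plants (log2 1.43, SE 0.47, edgeR adjusted p = 0.013). Untreated plants of day 8 had 11.3 ± 1.78 CPM in leaf and 2.59 ± 1.35 CPM in root (log2 2.13, SE 0.48, adjusted p = 0.000765). With library totals the call in SAB plants of day 8 was lost (log2 0.48, adjusted p = 0.356). The markers followed the labels: all 9 of green tissue were higher and all 10 of root lower in leaf in the 4 comparisons, with root marker sums of 4.8 to 27.1 CPM in leaf libraries and 1610.7 to 4024.2 CPM in root libraries.

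At day 18 the treatment was compared within leaf, by the same test on the 12 leaf libraries. Of 43 members, 6 rose and 6 fell in SAB leaf against untreated leaf; 14.4% of the 17706 identifiers tested were called, 7.91% higher and 6.52% lower. The median member fold was −0.03 on the log2 scale, against 0.00 over all identifiers. The members that rose were 3 of starch breakdown, the STP transporters AT1G11260 and AT5G26340, and GPT2. Those that fell were 3 of starch synthesis, 1 of starch breakdown, MEX1 and the invertase AT1G12240. The split was 3 higher and 10 lower without untreated replicate 2, and 8 higher and 2 lower without untreated replicate 3. With library totals in place of TMM it was 10 higher and 3 lower, and the median of all identifiers moved to 0.17. The shares of all identifiers called under these settings are not given, so the split cannot be set against them.

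**Figure D2:**
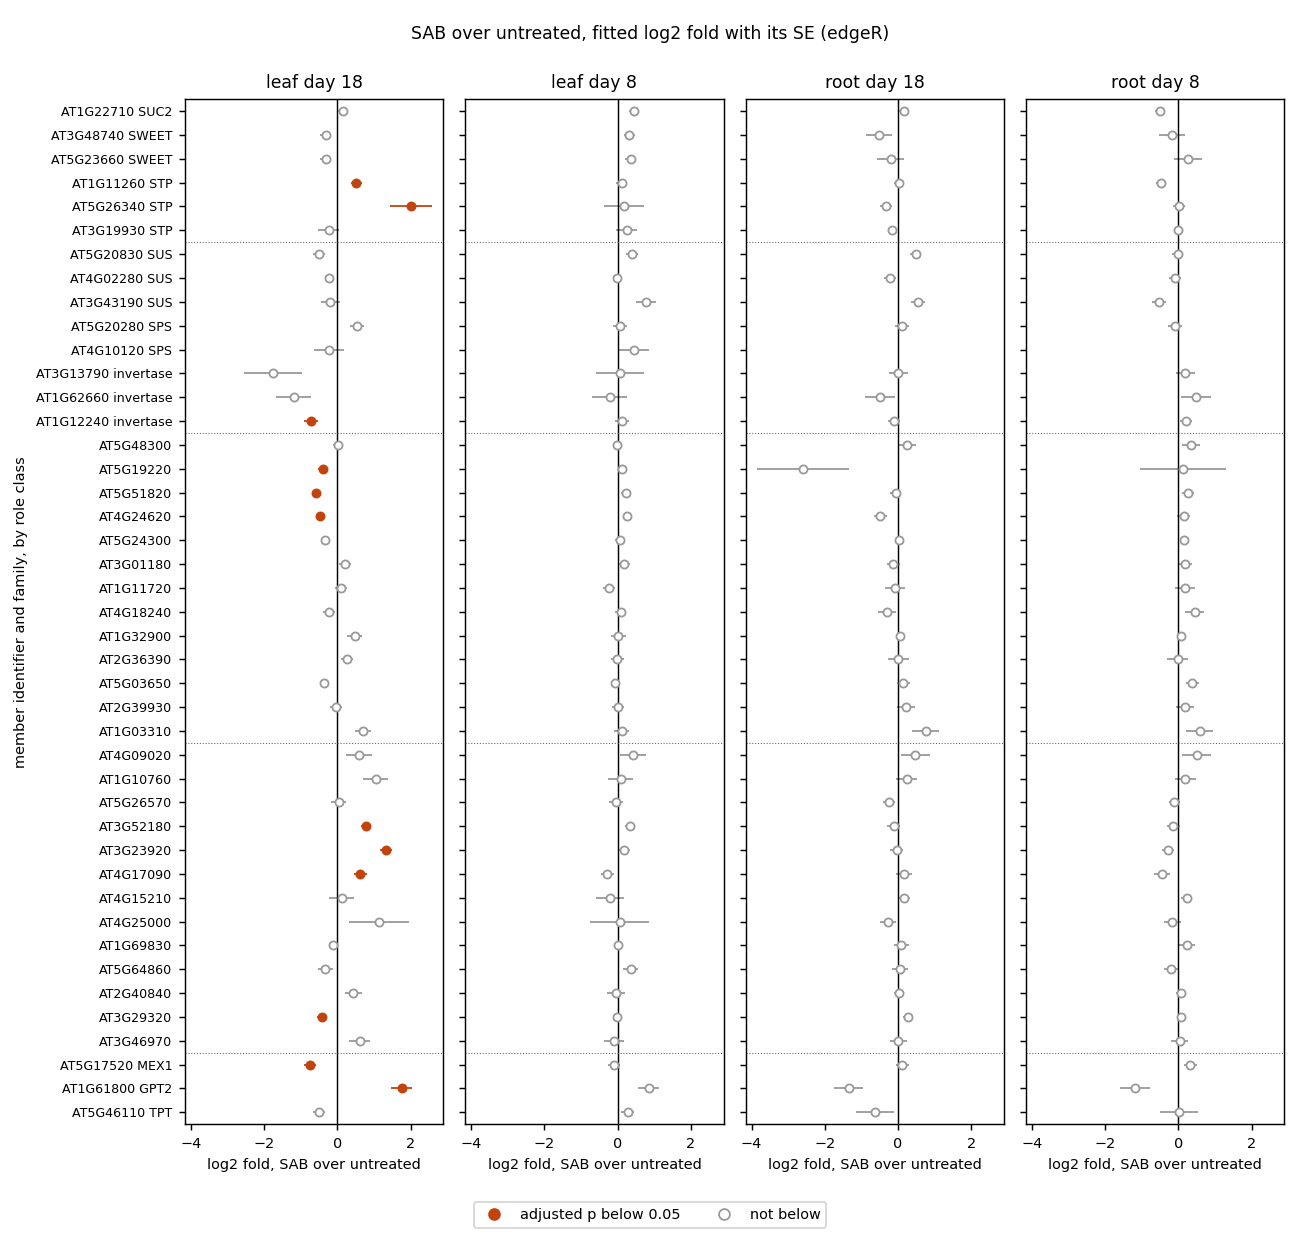
Fitted log2 fold of SAB over untreated (x axis) with its standard error for each member (y axis, by class) in leaf day 18, leaf day 8, root day 18 and root day 8. Filled points have an adjusted p below 0.05: 12 in leaf day 18 and 0 in each of the other panels.

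In starch breakdown 3 members rose, 1 fell and 9 were not called; the median log2 fold was 0.59 and 10 of 13 folds were above 0. AT3G23920 had 281, 256 and 189 CPM in the SAB libraries of replicates 1 to 3, against 92.7, 90.05 and 112 CPM in the untreated ones. Every SAB library was above every untreated one (means 242 ± 47.7 and 98.3 ± 12.03 CPM, SD, n = 3 each). The log2 fold was 1.32 (SE 0.17, edgeR adjusted p = 0.000936), the smallest p of the module in this comparison. AT3G52180 had 115, 90.2 and 91.1 CPM in SAB leaf and 65.6, 51.2 and 59.1 CPM in untreated leaf (log2 0.77, SE 0.13, adjusted p = 0.00432). Its SAB libraries lay above all the untreated ones, replicate 1 being the highest in both groups. AT4G17090 had 442, 545 and 433 CPM in SAB leaf and 336, 212 and 383 CPM in untreated leaf (log2 0.63, SE 0.18, adjusted p = 0.0434). The groups did not overlap, and untreated replicate 2 was the lowest of the 6 libraries. AT3G29320 fell, with 127, 124 and 128 CPM in SAB leaf and 177, 139 and 201 CPM in untreated leaf (log2 −0.43, SE 0.11, adjusted p = 0.0279). Its SAB libraries were close together below all the untreated ones, which were spread.

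Of the breakdown members that did not pass, AT1G10760 had 122, 45.1 and 90.1 CPM in SAB leaf and 32.0, 35.3 and 58.9 CPM in untreated leaf, with an overlap of the groups (log2 1.05, SE 0.35, adjusted p = 0.0688). AT3G46970 had a log2 fold of 0.60 (adjusted p = 0.177) and AT4G09020 one of 0.59 (adjusted p = 0.319).

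Of starch synthesis, 3 members fell, 0 rose and 10 were not called by edgeR, and the median log2 fold was −0.03. AT5G51820 had 136, 171 and 165 CPM in SAB leaf and 226, 208 and 277 CPM in untreated leaf (log2 −0.57, SE 0.13, adjusted p = 0.0157). AT4G24620 had 59.6, 70.6 and 63.9 CPM in SAB leaf and 86.2, 87.6 and 99.0 CPM in untreated leaf (log2 −0.47, SE 0.12, adjusted p = 0.0232). AT5G19220 had 302, 360.3 and 347 CPM in SAB leaf and 439.9, 402 and 507 CPM in untreated leaf (log2 −0.40, SE 0.12, adjusted p = 0.0449). In all 3 the SAB libraries were below every untreated one. Just outside the threshold, AT5G03650 had a log2 fold of −0.37 (adjusted p = 0.0517) and AT1G03310 one of 0.71 (adjusted p = 0.0531). AT5G48300, also of the class, had a log2 fold of 0.01 with an SE of 0.12.

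All 3 carriers are described here because they moved apart. GPT2 (AT1G61800) had 91.4, 41.7 and 55.7 CPM in SAB leaf and 19.2, 22.7 and 14.5 CPM in untreated leaf (log2 1.75, SE 0.30, adjusted p = 0.00381). Every SAB library exceeded every untreated one, and the SAB libraries were spread, replicate 1 being the highest. MEX1 (AT5G17520) fell, with 47.0, 43.6 and 36.3 CPM in SAB leaf and 57.3, 65.4 and 92.7 CPM in untreated leaf (log2 −0.75, SE 0.16, adjusted p = 0.0123). The groups did not overlap, and untreated replicate 3 stood highest. TPT had a log2 fold of −0.50 (SE 0.18, adjusted p = 0.0865) and did not pass.

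Among the transporters, AT1G11260 (STP) had 130.3, 186 and 193 CPM in SAB leaf and 115, 123 and 122 CPM in untreated leaf (log2 0.52, SE 0.15, adjusted p = 0.0399). AT5G26340 (STP) had 12.2, 3.73 and 2.54 CPM in SAB leaf and 1.93, 1.40 and 1.30 CPM in untreated leaf (log2 2.00, SE 0.57, adjusted p = 0.0406). The groups did not overlap in either, but the mean of AT5G26340 rested on SAB replicate 1: without it the log2 fold was 1.02 (adjusted p = 0.156). The remaining 4 transporters did not pass, SUC2 having a log2 fold of 0.16 and the SWEETs AT3G48740 and AT5G23660 of −0.32 and −0.31. Of the 8 sucrose enzymes, 1 fell and 7 were not called; the median log2 fold was −0.36, and 1 fold was above 0. The invertase AT1G12240 had 74.2, 82.6 and 94.8 CPM in SAB leaf and 127, 106 and 186 CPM in untreated leaf (log2 −0.72, SE 0.18, adjusted p = 0.0259). Its groups did not overlap, and untreated replicate 3 was far above the others. The SPS AT5G20280, the fold above 0, had 249, 190.2 and 156 CPM in SAB leaf and 135, 104 and 178 CPM in untreated leaf, with an overlap (log2 0.53, SE 0.19, adjusted p = 0.0997). The SUS AT5G20830 had a log2 fold of −0.50 (adjusted p = 0.078) and the invertase AT1G62660 one of −1.19 (adjusted p = 0.128).

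**Figure D3:**
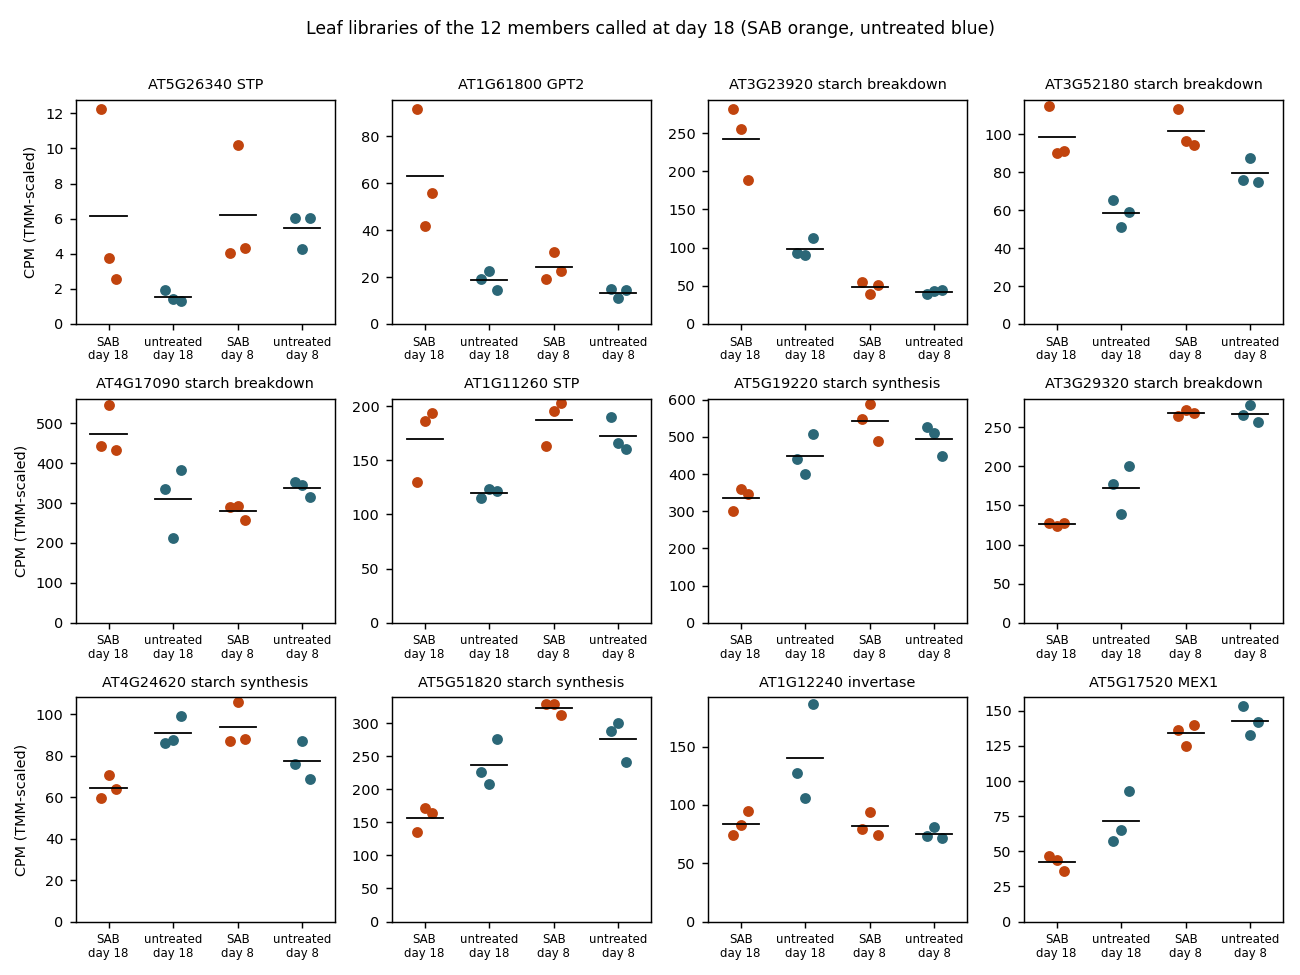
Level in CPM (y axis) of the 12 members called at day 18 in the 12 leaf libraries (points; black bars are group means), for SAB and untreated leaf of day 18 and of day 8. In every panel the 3 SAB points of day 18 lie on 1 side of the 3 untreated points of day 18. The panels were picked by the test on these same libraries, so this separation adds no support to the calls. SAB replicate 1 of AT5G26340 stands apart at 12.2 CPM.

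Of the 12 members, 5 were called without each of the 6 libraries in turn: AT3G23920, GPT2, AT3G52180, MEX1 and AT5G51820. Of the rest, AT4G24620 was called in 4 of the 6 fits, AT1G12240 in 3, AT3G29320 and AT5G26340 in 2 each, and AT1G11260, AT4G17090 and AT5G19220 in 1 each (highest edgeR adjusted p 0.0655 to 0.156). Without SAB replicate 1 the count was 6, with 4 higher and 2 lower. With library totals AT4G24620 (adjusted p = 0.108), AT3G29320 (0.105) and AT5G19220 (0.141) were not called, nor in a fit of all 24 libraries were AT4G17090 (0.0744) and AT5G19220 (0.723). In the same leaf libraries, 7 of the 9 markers of green tissue fell, with a median log2 fold of −0.75 and sums of 65339.6 to 75421.6 CPM in SAB leaf and 101688.8 to 134596.4 CPM in untreated leaf of day 18. At day 8, 0 of the 9 were called. The part of this difference in the members' folds was not tested.

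At day 8, 0 of 43 members were called in leaf by edgeR, where 0.424% of all identifiers were called. DESeq2 called 0 members and 2.22% of all identifiers, and 7 members had an unadjusted p below 0.05, where 9.02% of all identifiers did. The median log2 fold was 0.09 and 30 of 43 folds were above 0. The smallest p belonged to SUC2, with 287, 324 and 287 CPM in SAB leaf and 267, 184 and 198 CPM in untreated leaf (log2 0.45, SE 0.14, edgeR adjusted p = 0.282). GPT2 had 19.0, 30.8 and 22.6 CPM in SAB leaf and 14.7, 11.0 and 14.4 CPM in untreated leaf (log2 0.84, SE 0.29, adjusted p = 0.38). Neither passed although the groups of both did not overlap. The SUS AT3G43190 had 25.2, 35.4 and 50.2 CPM in SAB leaf and 19.8, 26.3 and 18.4 CPM in untreated leaf, which overlapped (log2 0.76, SE 0.27, adjusted p = 0.394).

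The effect of SAB in leaf was larger at day 18 than at day 8 for AT3G23920 and lower for AT4G24620, the 2 members called when the effects of the days were compared directly (2.46% of all identifiers called). AT3G23920 had 54.3, 38.8 and 50.5 CPM in SAB leaf and 38.9, 43.1 and 44.2 CPM in untreated leaf of day 8, which overlapped, and its log2 effect differed by 1.15 between the days (SE 0.23, edgeR adjusted p = 0.037). AT4G24620 had 87.1, 106 and 88.3 CPM in SAB leaf and 76.3, 87.3 and 68.7 CPM in untreated leaf of day 8, and its log2 effect differed by −0.74 (SE 0.17, adjusted p = 0.0479). Both differences were close to the threshold: AT3G23920 was called in 2 of 12 fits that left out 1 library each (highest adjusted p 0.0964), and AT4G24620 in 0 of 12 (highest 0.124). By DESeq2, 10 members were called, 2 higher and 8 lower, with 8.24% of all identifiers; with library totals, 2 were called higher and 0 lower, AT4G24620 not among them (adjusted p = 0.117). It also did not pass with no filter on low identifiers (adjusted p = 0.0536) or in a fit of all 24 libraries (adjusted p = 0.0744).

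In root, 0 of 42 members were called by edgeR at either day. The share of all 18973 identifiers called was 0.764% at day 18 and 0.0738% at day 8. At each day 4 members had an unadjusted p below 0.05, where 12.4% of all identifiers did at day 18 and 10.3% at day 8, and DESeq2 called 2 at each day, with 3.91% of all identifiers at day 18 and 2.79% at day 8. At day 18 GPT2 had 15.7, 24.2 and 47.6 CPM in SAB root and 59.1, 70.0 and 96.7 CPM in untreated root (log2 −1.35, SE 0.41, edgeR adjusted p = 0.193, DESeq2 adjusted p = 0.0269). The groups did not overlap. The SUS AT5G20830 had 379.9, 326 and 445 CPM in SAB root and 246, 266 and 322 CPM in untreated root (log2 0.48, SE 0.15, edgeR adjusted p = 0.209, DESeq2 adjusted p = 0.0406). AT3G43190, another SUS, had 338, 277 and 411 CPM in SAB root and 234, 238 and 239.8 CPM in untreated root (log2 0.54, SE 0.18, edgeR adjusted p = 0.249). In both SUS the SAB libraries were above all untreated ones.

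At day 8 SUC2 had 22.6, 24.7 and 25.7 CPM in SAB root and 37.9, 33.5 and 32.6 CPM in untreated root (log2 −0.52, SE 0.13, edgeR adjusted p = 0.153, DESeq2 adjusted p = 0.0186). The STP AT1G11260 had 109, 109.5 and 107 CPM in SAB root and 143, 130.1 and 181 CPM in untreated root (log2 −0.48, SE 0.14, edgeR adjusted p = 0.193, DESeq2 adjusted p = 0.0235). In both, SAB libraries were close together below every untreated one. GPT2 had 28.2, 41.1 and 41.0 CPM in SAB root and 71.3, 53.8 and 126 CPM in untreated root, also without overlap (log2 −1.18, SE 0.40, edgeR adjusted p = 0.309). When the effects of the days were compared in root, edgeR called 0 of 42 members (1.07% of all identifiers), DESeq2 called 2 (5.36% of all identifiers), and 5 had an unadjusted p below 0.05, where 13.4% of all identifiers did. The smallest p belonged to AT3G43190, whose log2 effect was 1.08 higher at day 18 (SE 0.26, edgeR adjusted p = 0.0736, DESeq2 adjusted p = 0.00219). SUC2 followed with 0.67 (SE 0.19, edgeR adjusted p = 0.117, DESeq2 adjusted p = 0.0193) and the STP AT1G11260 with 0.49 (SE 0.19, edgeR adjusted p = 0.279).

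The effects of SAB in root and in leaf were then compared directly, over all 24 libraries and again without pairing of leaf and root. At day 18, 3 of 43 members were called (1.02% of all identifiers). GPT2 had a log2 effect 3.11 lower in root than in leaf (−3.11, SE 0.54, edgeR adjusted p = 0.00787). Its SAB libraries of day 18 were above the untreated ones in leaf and below them in root. AT3G23920 had an effect lower in root, by −1.36 (SE 0.24, adjusted p = 0.00851), with 57.0, 62.9 and 81.5 CPM in SAB root and 56.3, 75.9 and 77.3 CPM in untreated root of day 18, which overlapped. The SUS AT5G20830 had a higher effect in root, by 0.98 (SE 0.23, adjusted p = 0.0486), with 27.1, 30.9 and 32.8 CPM in SAB leaf and 42.7, 31.0 and 56.2 CPM in untreated leaf, where SAB replicate 3 exceeded untreated replicate 2. The calls of GPT2 and AT3G23920 held without each of the 12 libraries of day 18 in turn, and that of AT5G20830 in 4 of 12 such fits. With no filter on low identifiers AT5G20830 did not pass (adjusted p = 0.0516). With library totals it did not pass either (adjusted p = 0.0623), and 5 members were called lower in root and 0 higher; with DESeq2 size factors, 3 were higher and 2 lower. At day 8, 1 member was called (2.08% of all identifiers): SUC2, with an effect lower in root by −0.98 (SE 0.19, adjusted p = 0.00566). Its call held without each of the 12 libraries of day 8 in turn but not with library totals (log2 −0.79, adjusted p = 0.0689).

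The rows behind these sums were tested singly, since 38 of the 43 members have 2 or more rows, which may be transcripts of the same gene or of separate copies of it. An estimate can split reads among rows of like sequence, so a row that changed without its sum is uncertain. In leaf at day 18, 10 of 148 member rows were called, 5 higher and 5 lower, in 9 members; 5.47% of all rows tested were called. In the other 3 comparisons of SAB with untreated, edgeR called 0 member rows, with 0.047% of all rows in leaf day 8, 0.388% in root day 18 and 0.0% in root day 8. For 33 of the 38 members the row with the most counts was the same in leaf and root. For 5 it was not (AT1G61800, AT4G15210, AT4G17090, AT4G25000 and AT5G48300), so their folds between organs compare rows that may be separate copies.

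GPT2 was among the 5. Of its 7 rows, row 3 held 76.1% of the counts in leaf, and row 2 held 93.3% in root. Row 3 rose in SAB leaf of day 18, with 87.4, 39.9 and 50.5 CPM, against 9.77, 11.3 and 8.63 CPM in untreated leaf (log2 2.59, SE 0.35, edgeR adjusted p = 0.0044). It was at or below 1.07 CPM in every root library. Row 2 in the same leaf libraries had 3.09, 1.59 and 4.98 CPM in SAB leaf and 6.96, 10.7 and 5.82 CPM in untreated leaf, without overlap (log2 −1.27, SE 0.40, adjusted p = 0.109). In root of day 18 row 2 had 13.7, 22.1 and 43.9 CPM with SAB and 52.3, 66.1 and 86.0 CPM without (log2 −1.34, SE 0.45, adjusted p = 0.406). At day 8 its root values were 25.6, 39.1 and 37.5 CPM with SAB and 68.2, 51.6 and 123 CPM without (log2 −1.30, SE 0.45, adjusted p = 0.541). So the SAB libraries were below the untreated ones for row 2 in all 3 of these settings, though row 2 passed in none of them. The leaf rise of the identifier was that of row 3. The effect of the sum in root against leaf therefore compares mostly different rows.

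**Figure D4:**
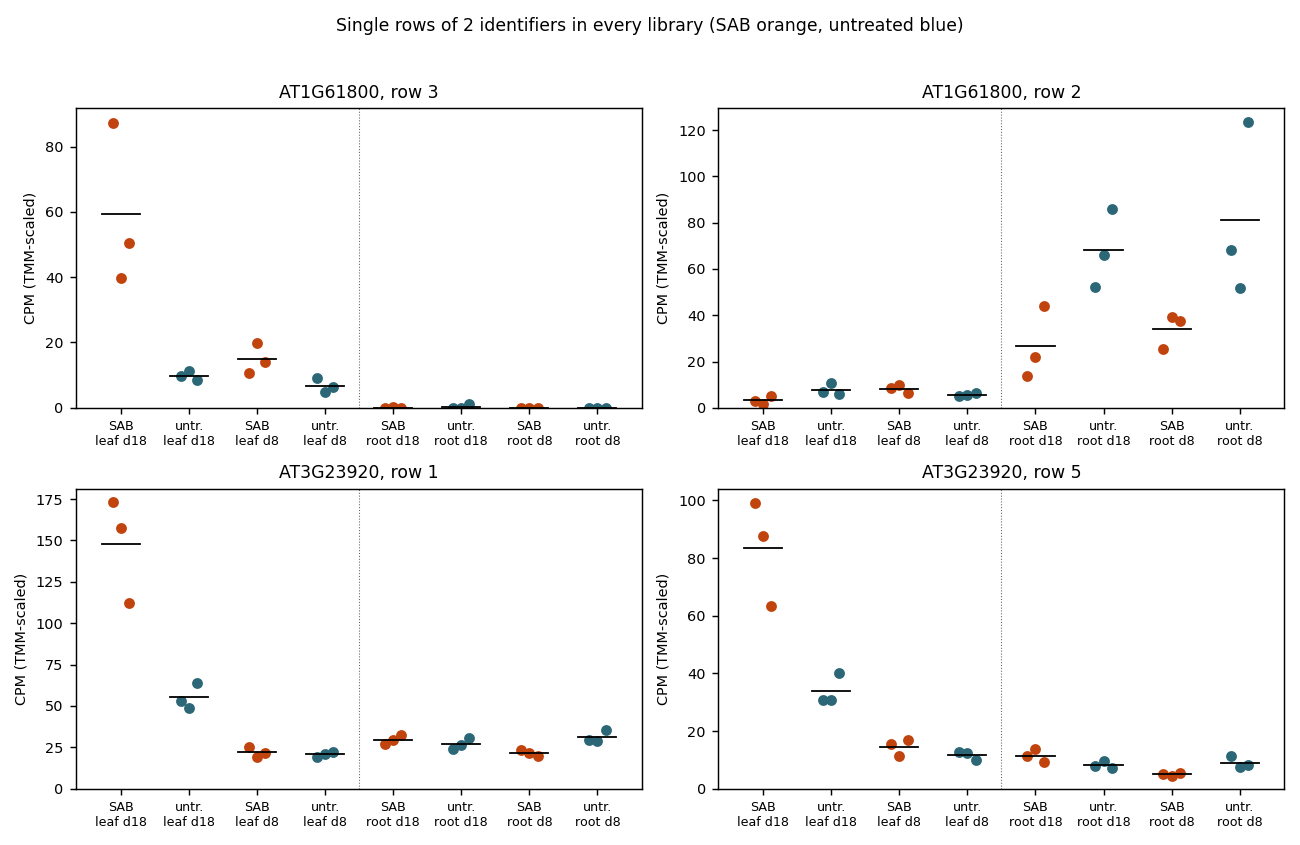
Level in CPM (y axis) of 2 rows of AT1G61800 (GPT2) and 2 rows of AT3G23920 in every library (points; black bars are group means), leaf groups on the left and root groups on the right. Row 3 of GPT2 is high in SAB leaf of day 18 and at or below 1.07 CPM in root, row 2 is mostly in root, and both rows of AT3G23920 are highest in SAB leaf of day 18.

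In the other members with a called row, the called rows moved in the direction of their sums. AT4G17090, AT1G12240, AT5G19220 and AT5G26340 were called by their sums in leaf at day 18 but had no called row. For AT1G11260, row 5, with 92.2% of its leaf counts, was not called. AT3G23920 had 6 rows, of which row 1 held 57.1% of the counts in leaf. Row 1 had 173, 158 and 112 CPM in SAB leaf and 52.9, 49.0 and 63.6 CPM in untreated leaf of day 18 (log2 1.43, edgeR adjusted p = 0.0025), and row 5 had 99.2, 87.6 and 63.4 CPM in SAB leaf and 30.8, 30.8 and 40.0 CPM in untreated leaf (log2 1.31, adjusted p = 0.0068). For both the groups were well apart. Row 1 of MEX1 fell, with 38.6, 37.6 and 33.8 CPM in SAB leaf and 57.3, 59.9 and 81.4 CPM in untreated leaf (log2 −0.84, adjusted p = 0.0059). Row 2 of AT3G52180 rose by 0.69 (adjusted p = 0.0202), and row 6 of the STP AT1G11260, a minor row with means of 13.4 CPM in SAB leaf and 7.95 CPM in untreated leaf, rose by 0.76 (adjusted p = 0.0285). Row 6 of AT3G29320 (log2 −0.47, adjusted p = 0.0244), row 4 of AT4G24620 (log2 −0.46, adjusted p = 0.0335) and row 2 of AT5G51820 (log2 −0.58, adjusted p = 0.0314) fell, as their sums did. TPT was the member with a called row and an uncalled sum: row 1, with 70.5% of its leaf counts, averaged 1146 CPM in SAB leaf and 1714 CPM in untreated leaf (log2 −0.57, adjusted p = 0.0331). In root against leaf at day 18, the effect of SAB differed for 2 member rows (0.162% of all rows), row 1 of AT3G23920 (log2 −1.21, adjusted p = 0.0368) and row 1 of MEX1 (log2 1.16, adjusted p = 0.0137). At day 8 it differed for 1 (0.775% of all rows), the row of SUC2 (log2 −0.95, adjusted p = 0.0146). SUC2 has 1 row, so this tests the same counts as its sum and adds no support to that call.

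Between the days the members of leaf moved in both directions. In SAB leaf, 7 of 43 members were higher and 15 lower at day 18 than at day 8; of all identifiers 25.8% were higher and 23.6% lower (49.4% called). In untreated leaf, 11 were higher and 17 lower (20.0% and 20.5% of all identifiers, 40.6% called), but 13 higher and 12 lower without untreated leaf day 18 replicate 2. The median member fold was −0.20 in SAB leaf and −0.22 in untreated leaf on the log2 scale. The same 5 members rose in both treatments and the same 12 fell, and 0 were called in opposite directions. The share of all identifiers called alike in both treatments was not computed, so this agreement cannot be set against it. Starch breakdown had 3 members that rose and 5 that fell in SAB leaf, and 2 and 7 in untreated leaf. Starch synthesis had 2 that rose and 7 that fell in SAB leaf, and 2 and 5 in untreated leaf. Of the 9 markers of green tissue, 7 were lower at day 18 in SAB leaf (median log2 −0.84), with sums of 65339.6 to 75421.6 CPM at day 18, against 136034.4 to 153804.5 CPM at day 8. In untreated leaf 2 were higher and 2 lower (median log2 0.02), with sums of 101688.8 to 134596.4 CPM at day 18, against 118357.4 to 146038.6 CPM at day 8. Their part in the members' folds was not tested.

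**Figure D5:**
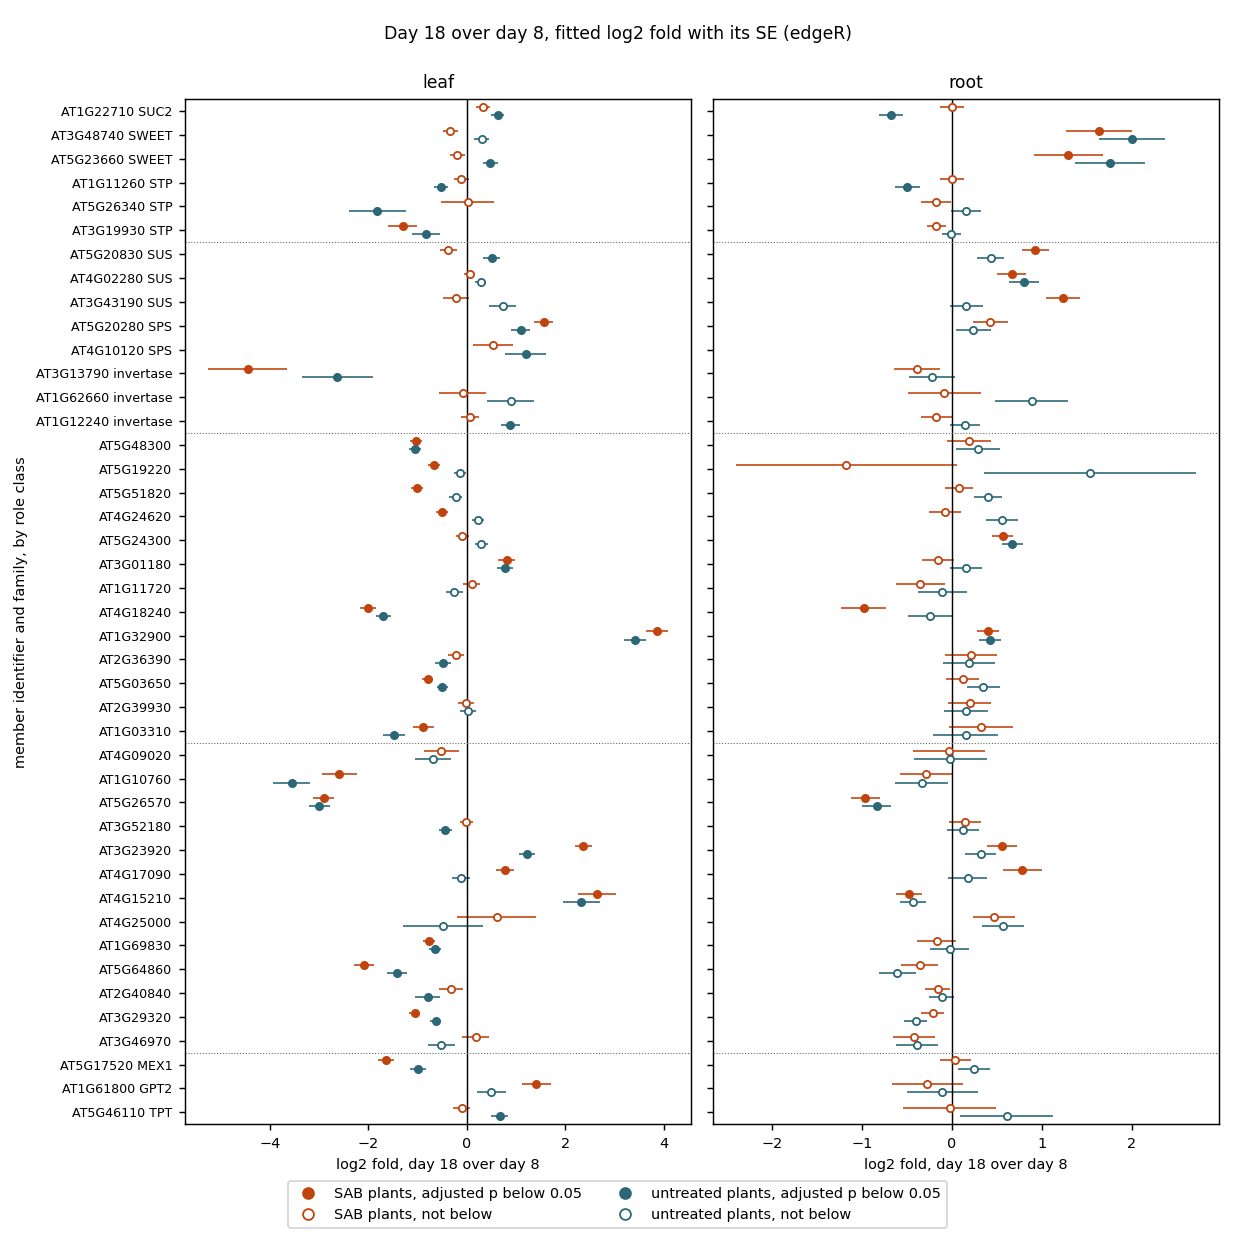
Fitted log2 fold of day 18 over day 8 (x axis) with its standard error for each member (y axis, by class), in leaf and in root, for SAB plants (orange) and untreated plants (blue); filled points have an adjusted p below 0.05. AT1G32900 is farthest to the right in leaf, at 3.87 in SAB and 3.42 in untreated plants, and most root points lie nearer to 0.

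The member that rose most in leaf was AT1G32900 of starch synthesis. In SAB leaf it had 485, 387 and 336 CPM at day 18 and 31.6, 20.6 and 32.1 CPM at day 8 (log2 3.87, SE 0.22, edgeR adjusted p = 4.92e-07). In untreated leaf it had 316, 230.0 and 336 CPM at day 18 and 29.8, 26.7 and 25.9 CPM at day 8 (log2 3.42, SE 0.22, adjusted p = 1.47e-06). The days were far apart in both. In the same class AT4G18240 fell, to 11.5 ± 1.29 CPM at day 18, against 47.1 ± 1.87 CPM at day 8 in SAB leaf (log2 −2.01, SE 0.16, adjusted p = 3.23e-06), and to 13.6 ± 3.39 CPM, against 43.9 ± 3.05 CPM in untreated leaf (log2 −1.69, SE 0.16, adjusted p = 1.59e-05). AT3G01180 rose and AT5G48300, AT5G03650 and AT1G03310 fell in both treatments.

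In starch breakdown AT5G26570 had 32.1, 21.4 and 17.2 CPM at day 18 and 171, 169.7 and 201 CPM at day 8 in SAB leaf (log2 −2.91, SE 0.21, edgeR adjusted p = 2.05e-06). AT1G10760 had 32.0, 35.3 and 58.9 CPM at day 18 and 532, 537 and 404 CPM at day 8 in untreated leaf (log2 −3.55, SE 0.38, adjusted p = 4.28e-05), and its log2 fold in SAB leaf was −2.59. No library of day 18 reached one of day 8 in these. AT4G15210 rose, to 10.2 ± 2.51 CPM at day 18, against 1.64 ± 0.563 CPM at day 8 in SAB leaf (log2 2.65, SE 0.38, adjusted p = 0.000214), and to 9.54 ± 3.94 CPM, against 1.89 ± 0.648 CPM in untreated leaf (log2 2.33, SE 0.38, adjusted p = 0.000704). AT3G23920 also rose in both treatments, and AT1G69830, AT3G29320 and AT5G64860 fell in both.

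Among the carriers MEX1 fell in both treatments, to 42.3 ± 5.44 CPM at day 18, against 134 ± 7.85 CPM at day 8 in SAB leaf (log2 −1.63, SE 0.16, edgeR adjusted p = 1.69e-05), and to 71.8 ± 18.6 CPM, against 143 ± 10.5 CPM in untreated leaf (log2 −0.99, SE 0.16, adjusted p = 0.000652). GPT2 rose in SAB leaf (log2 1.41, SE 0.29, adjusted p = 0.00219). TPT rose in untreated leaf, with 2504 ± 212 CPM at day 18 and 1576 ± 306 CPM at day 8 (log2 0.67, SE 0.18, adjusted p = 0.0119), but not in a fit of all 24 libraries (adjusted p = 0.21). Of the sucrose enzymes the SPS AT5G20280 rose in both treatments, in SAB leaf to 198 ± 46.8 CPM at day 18, against 68.6 ± 7.79 CPM at day 8 (log2 1.56, SE 0.20, adjusted p = 8.95e-05). The invertase AT3G13790 fell in both: SAB leaf had 0, 0.634 and 0.11 CPM at day 18 and 6.18, 7.02 and 4.22 CPM at day 8 (adjusted p = 0.000938), and untreated leaf averaged 0.889 ± 0.399 CPM at day 18 and 5.49 ± 0.966 CPM at day 8 (adjusted p = 0.0138). The SPS AT4G10120 rose in untreated leaf (log2 1.20, SE 0.42, adjusted p = 0.0395). It was called in 3 of 6 fits that left out 1 library and not in a fit of all 24 (adjusted p = 0.135). Among the transporters the STP AT3G19930 fell in both treatments, in SAB leaf to 68.8 ± 30.9 CPM at day 18, against 173 ± 29.4 CPM at day 8 (log2 −1.30, SE 0.29, adjusted p = 0.00347). In untreated leaf SUC2 rose (log2 0.63, SE 0.14, adjusted p = 0.00444) and the STP AT5G26340 fell (log2 −1.81, SE 0.57, adjusted p = 0.0266), a call that held in 2 of 6 fits without 1 library.

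The hour of sampling was not among the labels used here, and identifiers known in Arabidopsis as clock genes differed between the days. In leaf, 3 of 8 were higher and 5 lower at day 18 in both treatments. AT2G46830 averaged 127 CPM in SAB leaf and 133 CPM in untreated leaf at day 18, against 3.71 CPM in SAB leaf and 2.70 CPM in untreated leaf at day 8. AT5G61380 averaged 4.06 CPM in SAB leaf and 3.94 CPM in untreated leaf at day 18, against 169.9 CPM in SAB leaf and 192 CPM in untreated leaf at day 8. In root, 3 were higher and 3 lower in SAB plants, and 2 higher and 3 lower in untreated plants. In the comparisons of SAB with untreated, 0 of the 8 were called by edgeR. The part of the time of sampling in the members' differences between days was not tested.

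In root 9 of 42 members were higher and 3 lower at day 18 in SAB plants (15.3% and 12.1% of all identifiers, 27.5% called), and 5 were higher and 3 lower in untreated plants (8.22% and 8.25%, 16.5% called). Both treatments shared 5 members that rose, among them the SWEETs AT3G48740 and AT5G23660 and the SUS AT4G02280, and 1 that fell, AT5G26570. For root, too, the share of all identifiers called alike in both treatments was not computed. Of the 10 root markers, 6 were lower at day 18 in SAB root (median log2 −0.51), with sums of 1610.7 to 1930.5 CPM at day 18, against 3775.7 to 4007.4 CPM at day 8. In untreated root 5 were lower (median log2 −0.52), with sums of 2149.3 to 2273.6 CPM at day 18, against 3427.8 to 4024.2 CPM at day 8. The part of the root markers in the members' folds was not tested. AT3G48740 had 39.8, 18.3 and 20.0 CPM at day 18 and 5.12, 12.7 and 8.28 CPM at day 8 in SAB root (log2 1.64, SE 0.37, edgeR adjusted p = 0.00695). It had 47.5, 37.5 and 28.7 CPM at day 18 and 7.89, 10.6 and 10.8 CPM at day 8 in untreated root (log2 2.00, SE 0.37, adjusted p = 0.00532). The days did not overlap in either, and SAB replicate 1 of day 18 stood above its group. AT4G02280 rose in untreated root to 22.9 ± 0.841 CPM at day 18, against 13.5 ± 3.01 CPM at day 8 (log2 0.80, SE 0.17, adjusted p = 0.00922).

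The SUS AT3G43190 was called in SAB root alone, with 338, 277 and 411 CPM at day 18 and 162, 137 and 153 CPM at day 8 (log2 1.24, SE 0.19, edgeR adjusted p = 0.000746). Its difference between treatments is the change of the SAB effect between days given above, which did not pass by edgeR. SUC2 fell in untreated root, to 21.2 ± 3.02 CPM at day 18, against 34.7 ± 2.85 CPM at day 8 (log2 −0.67, SE 0.13, adjusted p = 0.0075). Of starch breakdown AT5G26570 fell to 7.14 ± 0.828 CPM at day 18, against 14.5 ± 1.52 CPM at day 8 in SAB root (log2 −0.96, SE 0.16, adjusted p = 0.00133), and by −0.84 in untreated root (adjusted p = 0.00649). AT4G17090 rose in SAB root, with 24.5 ± 0.662 CPM at day 18 and 14.8 ± 0.244 CPM at day 8 (log2 0.78, SE 0.22, adjusted p = 0.021), and was called in 1 of 6 fits without 1 library. Of starch synthesis AT5G24300 rose by 0.56 in SAB root (adjusted p = 0.0045) and by 0.67 in untreated root (adjusted p = 0.00392), and AT4G18240 fell in SAB root to 2.55 ± 0.301 CPM at day 18, against 5.24 ± 0.216 CPM at day 8 (adjusted p = 0.014). In SAB root the count of 12 fell to 6 without SAB root day 18 replicate 3 and without SAB root day 8 replicate 1, and to 7 without SAB root day 8 replicate 3.

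A further 61 identifiers of the same pathways, from the families the module covers in part, were read in the same fits. In leaf at day 18, 5 of 50 tested rose and 4 fell with SAB, with a median log2 fold of 0.24; over all identifiers 7.91% rose and 6.52% fell, so these counts lie near the background. Of the supply to starch synthesis AT2G21590 rose, with 181 CPM in SAB leaf and 74.9 CPM in untreated leaf (log2 1.28, edgeR adjusted p = 0.0013), AT1G27680 rose by 0.41 (adjusted p = 0.0247), and AT5G54800 fell (log2 −0.62, adjusted p = 0.019). Of starch breakdown and sugar export AT4G00490 rose by 0.89 (adjusted p = 0.0056), while AT5G18670 (log2 −0.63, adjusted p = 0.0071) and AT5G16150 (log2 −1.01, adjusted p = 0.0031) fell. Of the transporters AT1G09960 rose by 0.90 (adjusted p = 0.021), the STP AT5G26250 rose by 0.69 (adjusted p = 0.0489) and the SWEET AT1G21460 fell (log2 −0.60, adjusted p = 0.0332). In root at day 18 AT5G18670 alone of 48 was called, with 67.2 CPM in SAB root and 166 CPM in untreated root (log2 −1.29, adjusted p = 0.022), and at day 8 edgeR called 0 in leaf and 0 in root.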

How the data were processed

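The authors deposited 1 table of estimated counts for the 24 libraries. Per the submitters' processing notes, kallisto, Bowtie2 and Trim Galore were used; what each did, its version and the index are not given in the sources. The deposited estimated counts, of which most above 0 are not whole numbers, were summed per identifier and rounded. All identifiers were tested with edgeR 4.0.16 (limma 3.58.1, R 4.3.3): robust quasi-likelihood fits with 1 mean per group, TMM scaling, the filter on low identifiers at a minimum count of 10 and total of 15, and p-values adjusted by Benjamini-Hochberg over all identifiers tested (false discovery rate 0.05). The 12 libraries of an organ entered the comparisons within it, and all 24 those between organs. The edgeR procedure was also run on counts simulated with known changes and a single dispersion for all identifiers. That run checks the code and lends no support to any call given here.

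Members, classes and lists were chosen with earlier results of these data known. Named were every member called for SAB or for a difference of SAB effects, the 3 with the smallest p where 0 were called, and, for days and organs, the member of each class with the largest rise and fall among those called whose mean reached 5 CPM in either group. A few others just outside the threshold or called alike in both treatments were named after their values were seen. Alternatives were DESeq2 1.42.0, its size factors, library totals, no filter, single rows, all 24 libraries in 1 fit, a replicate block and each library left out. Replicates of the same number were checked for pairing by the correlation of their deviations from the group means. It was −0.115 to 0.262 between SAB and untreated and −0.179 to 0.0354 between days. Between leaf and root it was −0.0245 to 0.161 at day 8 and 0.398 to 0.513 at day 18. At day 18 every pair was over 0.1 and the numbers are taken to pair the organs. The p-values of the organ comparisons in the Results nevertheless come from the fit without pairs, and the block is an alternative. The deposited estimated counts come from an allocation of reads, so no counting intervals are given, and low levels are less precise than high ones.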

Additional observations from a re-analysis of the deposited data

Results flagged for a closer look

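Each result here is a difference between 2 effects of SAB that passed a direct test by edgeR. In leaf, the log2 effect of SAB was higher at day 18 than at day 8 by 1.15 for AT3G23920 and lower by −0.74 for AT4G24620. At day 18, the effect was lower in root than in leaf by −3.11 for GPT2 (AT1G61800) and by −1.36 for AT3G23920. It was higher in root by 0.98 for the SUS AT5G20830. At day 8, it was lower in root than in leaf by −0.98 for SUC2 (AT1G22710). Not all of these held in fits without 1 library. The leaf differences of AT3G23920 and AT4G24620 were called in 2 and 0 of 12 such fits. That of AT5G20830 was called in 4 of 12. With library totals AT4G24620, AT5G20830 and SUC2 did not pass. The sums of GPT2 compare mostly different rows in leaf and root.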

How the results depend on the processing

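The log2 folds of named members, fitted on sums over rows, kept their sign under every alternative that used sums. Single rows were outside this check, and row 2 of GPT2, which was not called, went against its sum in leaf at day 18. The balance of higher and lower calls changed under some alternatives. In untreated leaf between days (11 higher, 17 lower) it was 13 and 12 without untreated leaf day 18 replicate 2, in untreated root between days (5 and 3) it was 2 and 5 on single rows, and in root against leaf at day 18 (1 and 2) it was 3 and 2 with DESeq2 size factors. In leaf at day 18 the count of 12 called members was 7 with the replicate block (3 higher, 4 lower) and 6 to 13 with 1 library left out. The SAB and untreated numbers were not taken as paired. Their correlations in replicates 1 to 3 were 0.123, 0.00718 and 0.00508 in leaf at day 18, and 0.236, 0.00493 and 0.262 in root at day 18. The lowest was −0.115, in root at day 8. The change between days in leaf (2 members) was 10 by DESeq2, 1 with no filter, 0 on single rows, 0 with the block and 0 to 2 with 1 library left out. In root DESeq2 called 2 members at day 18, 2 at day 8 and 2 for the change between days, where edgeR called 0; the last was 0 to 1 with 1 library left out. Day 18 over day 8 in untreated root (8) was 13 by DESeq2, with 7 higher and 6 lower, and 6 to 9 with 1 library left out; in SAB root (12) the range was 6 to 11. Root against leaf at day 18 (3) was 5 with DESeq2 size factors, 5 with library totals, 7 by DESeq2 and 2 to 4 with 1 library left out. With the block, in the pairing that holds, it was 4, and leaf over root at day 18 stayed at 41 members in SAB and 39 in untreated plants. Root against leaf at day 8 (1) was 2 with size factors, 0 with library totals, 3 by DESeq2 and 1 to 3 with 1 library left out. The blocked log2 differences of GPT2 (−3.15), AT3G23920 (−1.35) and AT5G20830 (0.94) passed at day 18. The other counts stayed within 1.5 times. Library totals moved the median of all identifiers to 0.17 for SAB in leaf of day 18, 0.27 for its change in leaf, −0.14 for its change in root, −0.23 and 0.18 for root against leaf at day 18 and day 8, 0.33 and −0.16 for the days in SAB leaf and SAB root, and −1.004 to −0.60 between organs. The causes were not tested. Apart from the DESeq2 and single-row shares stated above, counts under alternatives have no share of all identifiers beside them.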

Other observations

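Of 6 identifiers known in Arabidopsis as induced by sugar starvation, 5 were tested in leaf. The summed level of all 6 was 59.2 to 90.5 CPM in SAB leaf at day 18, against 512.3 to 594.8 CPM at day 8. In untreated leaf it was 54.3 to 72.3 CPM at day 18, against 318.4 to 727.8 CPM at day 8. Of the 5 tested, edgeR called 1 higher and 2 lower at day 18 in SAB leaf, where 49.4% of all identifiers were called. In untreated leaf it called 0 higher and 3 lower, where 40.6% of all identifiers were called. The sums therefore do not stand for each identifier. The part of the time of sampling in these differences between days was not tested. At day 18 the SAB leaf differed from the untreated leaf in 2 of the 5 by edgeR, in opposite directions (14.4% of all identifiers called). AT1G10070 averaged 53.5 ± 16.4 CPM in SAB leaf and 27.5 ± 5.70 CPM in untreated leaf (log2 0.97, SE 0.23, adjusted p = 0.019). AT5G20250 averaged 2.30 ± 0.449 CPM in SAB leaf and 6.71 ± 2.15 CPM in untreated leaf (log2 −1.52, SE 0.30, adjusted p = 0.00819). The groups did not overlap in either.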
